A study of Mus musculus with 9 samples.

Results

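The hearts of newborn mice were compared with those of mouse fetuses close to term. The comparison was chosen by its labels and took 6 of the 9 libraries of the series: 3 labelled 3d, which the labels call neonatal, and 3 labelled E18 (embryonic day 18). In the main tests the 3 remaining libraries, of adult hearts at 8 weeks (8w), entered only the estimate of spread between libraries. For circular RNAs they also entered the filter and the scaling. Every animal was wild type, with no transgene or treatment, and total RNA was taken from the heart. The labels also give cardiocytes as the cell type, without naming a step that would isolate heart muscle cells. Genes of endothelium, fibroblasts and red blood cells were plentiful at both stages, so the values are read as those of heart tissue. The labels call the libraries biological replicates and say neither how many hearts went into each nor which sex they were, so that p-values measure the spread between these samples. In bulk tissue, fewer cells of a type and less RNA per cell cannot be told apart.

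Birth changes the oxygen, the fuel and the hormones that reach the heart. The fetal heart works at low oxygen and burns glucose and lactate to a large extent, whereas the newborn heart receives milk fat and comes to depend on fatty acid oxidation in its mitochondria. Low oxygen stabilises the hypoxia-inducible factors, which switch on glycolytic and vessel genes. Glucocorticoids surge before birth and act through a nuclear receptor. Heart muscle cells of the mouse still divide in the first days of life and leave the cell cycle soon after, while the slow fetal myosin gives way to the fast adult one.

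Levels of coding genes and of lncRNAs (long non-coding RNAs) are in FPKM, a fragment number per transcript length and sequencing depth. For circRNAs (circular RNAs) the values are reads that span a back-splice junction. The 6 libraries held 12196925 to 12982046 fragments over both FPKM tables. Genes of mitochondrial DNA took 11.18%, 9.33% and 10.79% of coding fragments at 3d, against 4.76%, 3.91% and 4.85% at E18, and the median coding gene was 0.159 lower on the log2 scale at 3d as deposited. Each library was centred on its median gene, as the rule of the comparison asked. The fold changes below are relative to that gene, whereas FPKM are as deposited. A fold change is 3d minus E18 on the scale of log2(FPKM + 1), which understates the change of genes with low values. The library 3d replicate 1 stood apart. It held 24.6% of its FPKM in lncRNAs, against 17% to 19.3% in the other 5, and Xist, which coats the inactive X, had 203 FPKM there, against 78.5 to 96.7 FPKM in the others. Uty, a gene of the Y chromosome, was at 5.24 FPKM there, against 16.5 to 18.6 FPKM in the others. Ddx3y, Eif2s3y and Kdm5d, also of the Y, were lower there as well. Xist and Uty were thus both present in each of the 6 libraries. In the 8w libraries Uty was at 1.11, 0.119 and 0.0691 FPKM. The part of sex in the results was not tested. The atrial light chain Myl7 lay at 348, 60.2 and 67.8 FPKM in the 3d libraries and at 260, 100 and 204 FPKM in the E18 libraries.

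Of 11858 coding genes with a mean of at least 1 FPKM, 2128 passed the test (17.9%). At 3d, 1117 were higher (9.42%) and 1011 lower (8.53%). A call is an adjusted p under 0.05 in limma. Counts of list members called below are to be read beside the shares of 9.42% and 8.53%. Most changes were modest: the median log2 fold change was 0.62 among genes called higher and −0.57 among genes called lower, and 134 higher and 73 lower genes moved over 2-fold. The libraries of the 2 stages did not overlap for 5352 genes (45.1%). Without centring, the split turned to 591 higher and 2585 lower. Without 3d replicate 1, 1184 were higher and 950 lower. The totals of 1223, 1169 and 1121 without E18 replicate 1, 2 or 3 were the smallest of those with 1 library left out. Where leaving out 1 library ended the call of a gene named here, the highest adjusted p over the 6 such fits is printed with the libraries concerned.

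**Figure D1:**
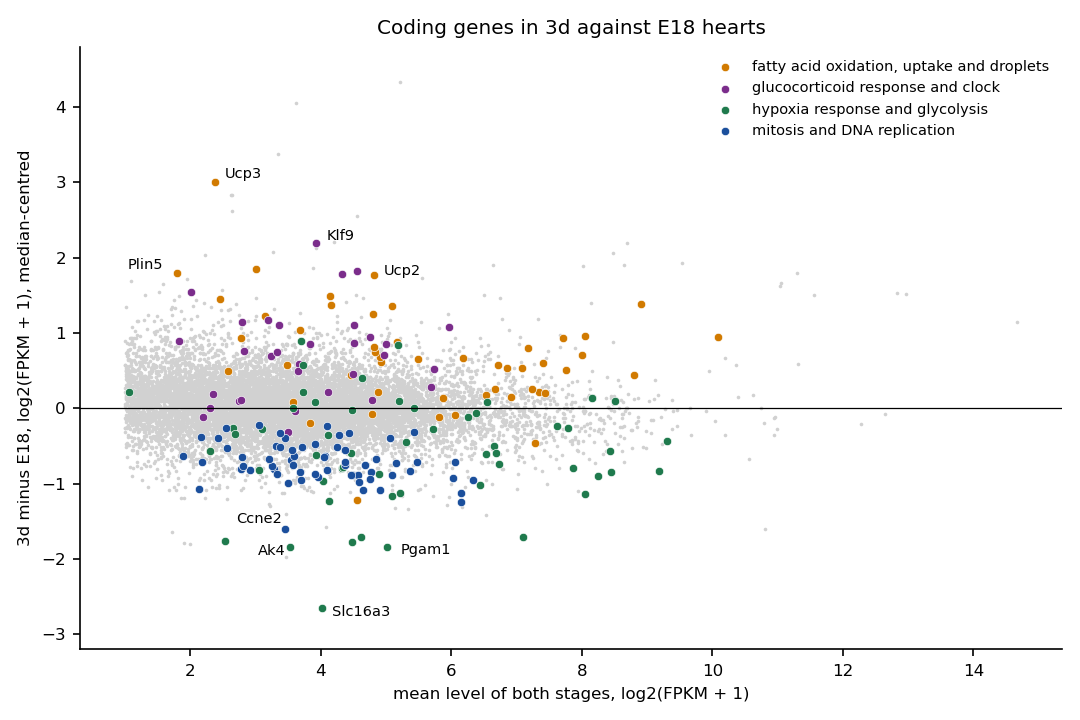
Each point is 1 of the 11858 tested coding genes, with its mean level over both stages on the horizontal axis and its median-centred difference, 3d minus E18, on the vertical axis, both as log2(FPKM + 1). Coloured points are members of 4 groups of gene lists. Members for fatty acid use and for the glucocorticoid response lie mostly above 0, with Ucp3 at 3.01, and members for hypoxia, glycolysis and cell division mostly below 0, with Slc16a3 at −2.66.

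Genes that respond to low oxygen were lower at 3d. Of 33 tested members of the hypoxia list, 19 fell and 2 rose, with a median log2 fold change of −0.50, against 0.019 over all tested genes. The largest fall was that of Ak4, a mitochondrial adenylate kinase, at 3.04, 2.93 and 4.75 FPKM in the 3d libraries, against 18.7, 19.8 and 14 FPKM in the E18 libraries. The log2 fold change of −1.85 ± 0.18 carries its SE (adjusted p = 0.000268), and the stages did not overlap. Egln3, a prolyl hydroxylase that marks the hypoxia-inducible factors for destruction and is itself their target, was at 7.09, 11.3 and 10.3 FPKM at 3d, against 36.9, 38.7 and 36.7 FPKM at E18 (log2 fold change −1.71 ± 0.19, adjusted p = 0.000505). The E18 libraries lay within 2 FPKM of each other, and the 3d libraries were all lower. Ankrd37, a small ankyrin-repeat protein, fell by 1.76 ± 0.27 on the log2 scale, and P4ha1, a subunit of the collagen prolyl hydroxylase, by 1.23 ± 0.10. The mitochondrial protein Fam162a (−1.14 ± 0.16), the lysyl hydroxylase Plod2 (−0.87 ± 0.14) and the vessel growth factor Vegfa (−0.50 ± 0.10) fell as well. The mitophagy receptor Bnip3 was called lower (−0.74 ± 0.23, adjusted p = 0.0464), with adjusted p up to 0.136 without E18 replicate 1, 2 or 3. The 2 members that rose were Epas1, which encodes an oxygen-regulated factor subunit rich in endothelium, and Ddit4, an inhibitor of mTOR signalling that glucocorticoids also induce. Epas1 was at 47.7, 45.4 and 37.9 FPKM at 3d, against 26.8, 27.6 and 26.9 FPKM at E18 (log2 fold change 0.84 ± 0.09, adjusted p = 0.000363). Ddit4 rose by 0.89 ± 0.24 (adjusted p = 0.0287), with adjusted p up to 0.10 without any 1 library other than 3d replicate 1 and of 0.0573 without centring.

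The core of the element bound by the hypoxia-inducible factors, ACGTG, was searched on both strands in the 250 bases before each start site of RefSeq genes. A promoter was listed for 27 of the 34 members. The motif was present for 12 of 14 members called lower, for 5 of 12 that were not called or not tested, for the 1 called higher, and for 18.5% of all 27025 genes in the table. Many members are known targets of these factors, so the first share is no independent result. Printed here are the 2 called members of largest change with a window that held it, overlapped no annotated UTR and lay outside the gene. The motif is in capitals, as CACGT where it lies on the other strand, and the start site follows the last base.
Egln3 (GRCm38.p6, chr12:54203875-54204124, minus strand): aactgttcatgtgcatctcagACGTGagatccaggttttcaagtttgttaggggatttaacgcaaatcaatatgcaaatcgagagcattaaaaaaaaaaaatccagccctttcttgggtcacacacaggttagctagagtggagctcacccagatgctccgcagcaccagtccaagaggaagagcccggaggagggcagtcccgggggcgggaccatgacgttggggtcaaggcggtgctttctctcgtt
P4ha1 (GRCm38.p6, chr10:59323046-59323295, plus strand): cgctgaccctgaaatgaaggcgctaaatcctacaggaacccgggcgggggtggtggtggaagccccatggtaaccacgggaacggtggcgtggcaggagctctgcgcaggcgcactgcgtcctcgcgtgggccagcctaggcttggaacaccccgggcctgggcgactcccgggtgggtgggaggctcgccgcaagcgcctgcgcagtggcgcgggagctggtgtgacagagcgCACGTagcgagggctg
In Egln3 the motif starts 229 bases before the start site, and in P4ha1 16 bases before it. A match is a description of the letters and not evidence of binding.

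Genes of glucose uptake, glycolysis and lactate export were lower at 3d. Of 22 tested members 13 fell and 1 rose, with a median log2 fold change of −0.71. Slc16a3, the exporter that releases lactate from glycolytic cells (chromosome 11, 120948480 to 120960868, GRCm38), was at 1.96, 5.0 and 2.45 FPKM in the 3d libraries, against 25.3, 27.3 and 29.2 FPKM in the E18 libraries. Its log2 fold change of −2.66 ± 0.29 (adjusted p = 0.00038) was the largest fall among coding genes that averaged at least 10 FPKM in the higher stage. Slc2a1, the glucose transporter of fetal tissue, was at 7.4, 8.98 and 7.95 FPKM at 3d, against 34.7, 34.1 and 34.0 FPKM at E18 (−1.78 ± 0.10, adjusted p = 1.66e-05). Its values were close together within each stage and the stages far apart. Slc2a4, the insulin-responsive glucose transporter of muscle, was the member that rose, by 0.40 ± 0.11 (adjusted p = 0.0345). That call was not kept without centring (adjusted p = 0.181), and the adjusted p reached 0.12 without E18 replicate 1, 2 or 3 or 3d replicate 2.

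Along the pathway, the falls included hexokinase 2 (Hk2, −1.17 ± 0.19), the phosphofructokinase subunits of liver type (Pfkl, −1.12 ± 0.16) and platelet type (Pfkp, −1.02 ± 0.14), and lactate dehydrogenase A (Ldha, −0.83 ± 0.13). Pgam1, the phosphoglycerate mutase of most tissues, was at 12.7, 13.4 and 9.72 FPKM at 3d, against 51.2, 49.5 and 51.9 FPKM at E18 (−1.84 ± 0.13, adjusted p = 5.24e-05). The mouse genome holds near-identical copies of Pgam1, so its reads may be shared with them. The muscle isoform Pgam2 (log2 fold change −0.23 ± 0.13) and the heart-type lactate dehydrogenase Ldhb (0.09 ± 0.10) did not pass the test. The reference gene Gapdh could not be read, with 34.5, 158 and 5.75 FPKM at 3d, against 21.7, 218 and 381 FPKM at E18.

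Outside the lists, 2 genes that act on glycogen were also among the largest falls. Ppp1r3b, which targets protein phosphatase 1 to glycogen, was at 14.3, 17.7 and 20.3 FPKM at 3d, against 50.4, 51.6 and 49.6 FPKM at E18 (−1.32 ± 0.19, adjusted p = 0.00163). Ppp1r3c, a related glycogen-targeting subunit, was at 30.3, 31.1 and 33.0 FPKM at 3d, against 84.3, 101 and 80.1 FPKM at E18 (−1.28 ± 0.20, adjusted p = 0.00223). Neither overlapped between stages. Another phosphatase regulator, Ppp1r1b, also called DARPP-32, fell by 1.27 ± 0.20.

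**Figure D2:**
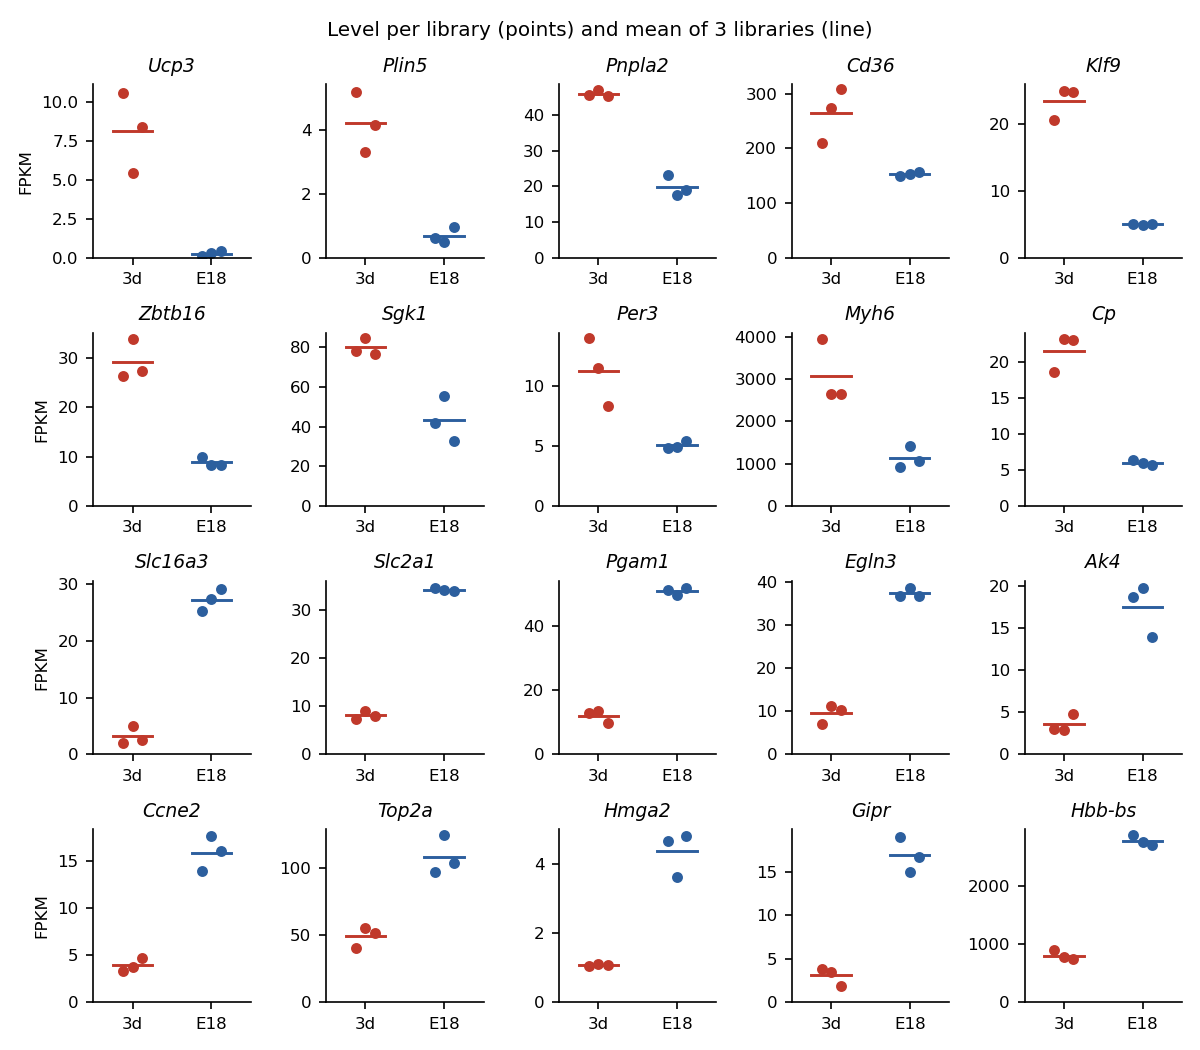
FPKM of 20 coding genes in each of the 3 libraries at 3d (left, red) and at E18 (right, blue), as points in the order of replicates 1, 2 and 3, with the mean as a line. In all 20 panels the points of the stages do not overlap, as for Slc2a1 with 7.4 to 8.98 FPKM at 3d and 34.0 to 34.7 FPKM at E18.

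Genes that burn fatty acids were higher at 3d. Of 29 tested members of the fatty acid oxidation list 20 rose and 0 fell, with a median log2 fold change of 0.58, and 17 were called higher without centring. Ucp3, a mitochondrial carrier induced when fat is the fuel, was at 10.6, 5.46 and 8.41 FPKM at 3d, against 0.0988, 0.27 and 0.398 FPKM at E18 (3.01 ± 0.39, adjusted p = 0.00116). Its relative Ucp2 was at 58.2, 35.1 and 31.4 FPKM at 3d, against 12.9, 16 and 9.68 FPKM at E18 (1.77 ± 0.20, adjusted p = 0.000586). Both carriers were higher in every 3d library, Ucp3 from a level near 0 at E18. Mlycd, which removes the malonyl-CoA that blocks fat entry into mitochondria, was at 16.1, 15.9 and 14.8 FPKM at 3d, against 8.13, 8.35 and 7.91 FPKM at E18 (1.04 ± 0.09, adjusted p = 0.000122). Acacb, which makes that malonyl-CoA at the mitochondrial surface, rose as well, by 0.75 ± 0.13. Acsl1, which activates fatty acids with coenzyme A, rose by 0.80 ± 0.12, and Hadha, of the trifunctional enzyme of the oxidation cycle, by 0.71 ± 0.10. The thioesterases Acot1 (1.49 ± 0.20) and Acot2 (1.25 ± 0.17) lie in 1 cluster of near-identical genes and may share reads.

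The entry step itself is run by carnitine palmitoyltransferase 1, of which Cpt1a is the liver form and Cpt1b the muscle form. Cpt1a was at 45.8, 39.4 and 44.7 FPKM at 3d, against 28.7, 24.0 and 26.0 FPKM at E18 (0.88 ± 0.16, adjusted p = 0.00578). Cpt1b was at 161, 114 and 114 FPKM at 3d, against 105, 95.2 and 97.9 FPKM at E18 (0.53 ± 0.12, adjusted p = 0.0128). The call of Cpt1b was lost without E18 replicate 2 or 3 (adjusted p up to 0.0512) and without centring (0.0641). The log2 ratio of Cpt1b to Cpt1a was 1.79, 1.5 and 1.33 at 3d and 1.84, 1.94 and 1.87 at E18, and was the only one of the 25 isoform and paralog ratios examined that was lower at 3d with no overlap.

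Fat uptake and lipid droplet genes rose with them, 14 of 21 tested members against 3 that fell (median 0.93). Plin5, which coats droplets beside mitochondria, was at 5.21, 3.31 and 4.18 FPKM at 3d, against 0.629, 0.485 and 0.972 FPKM at E18 (1.80 ± 0.16, adjusted p = 0.000151). Plin4, another droplet coat protein, was at 25.6, 22.7 and 23.1 FPKM at 3d, against 9.5, 10.3 and 9.74 FPKM at E18 (1.37 ± 0.09, adjusted p = 2.37e-05). Pnpla2, the lipase that opens triglyceride breakdown, was at 45.6, 47.1 and 45.4 FPKM at 3d, against 23.1, 17.5 and 19 FPKM at E18 (1.36 ± 0.11, adjusted p = 7.61e-05). Its inhibitor G0s2 was among the members that fell, at 14.8, 11.1 and 9.86 FPKM at 3d, against 31.7, 39.1 and 27.9 FPKM at E18 (−1.22 ± 0.16, adjusted p = 0.00106). The lipase and its inhibitor thus lay on opposite sides, each without overlap. The other falls were Hilpda, a further inhibitor of that lipase (−0.57 ± 0.13, adjusted p = 0.0127, and 0.0623 without E18 replicate 3), and the epidermal-type fatty acid binding protein Fabp5 (−0.46 ± 0.09). Plin2, the general droplet coat protein, had a log2 fold change of −0.08 ± 0.14.

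At the cell surface, Cd36, the fatty acid translocase, was at 209, 274 and 309 FPKM at 3d, against 150, 154 and 156 FPKM at E18 (0.94 ± 0.16). Lpl, which frees fatty acids from blood lipoproteins, was at 267, 373 and 359 FPKM at 3d, against 188, 202 and 185 FPKM at E18 (0.96 ± 0.15). The transport protein Slc27a1 (1.23 ± 0.18), the heart-type binding protein Fabp3 (0.95 ± 0.12) and the endothelial and fat-cell binding protein Fabp4 (1.38 ± 0.22) rose too. Angptl4, a secreted inhibitor of Lpl, was at 15.4, 7.66 and 10.7 FPKM at 3d, against 2.63, 2.44 and 3.1 FPKM at E18. Its call was weak for its size (1.85 ± 0.56, adjusted p = 0.0434). The spread behind that SE also takes in the 8w libraries, at 23.3, 3.54 and 2.76 FPKM. The adjusted p reached 0.116 with 1 library left out, whichever it was.

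Fatty acid synthesis and desaturation were mixed, with 2 of 12 members higher and 3 lower. With 1 library left out 1 was higher, unless it was 3d replicate 1, and without centring 1 was higher and 4 lower. The desaturase Scd4 was at 25.9, 18.8 and 24.6 FPKM at 3d, against 6.26, 4.32 and 5.12 FPKM at E18 (2.13 ± 0.19, adjusted p = 0.000178). Its relative Scd2 was at 69.9, 79.8 and 70.3 FPKM at 3d, against 129, 169 and 143 FPKM at E18 (−0.81 ± 0.15, adjusted p = 0.00552). The elongase Elovl6 fell by 0.69 ± 0.13. Of 22 cholesterol genes 1 rose and 3 fell, the rise being Hsd17b7, a reductase of sterol synthesis (1.00 ± 0.13). None of the 3 falls was kept without E18 replicate 2 or 3d replicate 2, and 1 without E18 replicate 3 or 3d replicate 3. Of 20 members for ketone body and branched-chain amino acid oxidation, 2 rose and 1 fell, a share close to the background, or 1 and 4 without centring. The member that fell was Oxct1, which lets tissues use ketone bodies, at 102, 144 and 139 FPKM at 3d, against 206, 215 and 213 FPKM at E18 (−0.55 ± 0.14, adjusted p = 0.0238, and up to 0.0785 without E18 replicate 1, 2 or 3).

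Pyruvate dehydrogenase kinases block the entry of glucose carbon into the citric acid cycle. Pdk4, the form induced by fat and fasting, was at 49.7, 68.0 and 90.9 FPKM at 3d, against 25.3, 19.5 and 22.9 FPKM at E18 (1.73 ± 0.38, adjusted p = 0.0119). Pdk1, the form induced by hypoxia, was at 58.4, 86.3 and 81.5 FPKM at 3d, against 120, 141 and 124 FPKM at E18 (−0.60 ± 0.16, adjusted p = 0.0238, and up to 0.0899 without E18 replicate 1, 2 or 3). The log2 ratio of Pdk4 to Pdk1 was −0.23, −0.34 and 0.16 at 3d and −2.21, −2.80 and −2.39 at E18, so that the 2 kinases had come to similar levels at 3d. Of the 14 members of the pyruvate entry list 3 rose and 1 fell. The count higher was 1 without E18 replicate 2, 2 without 3d replicate 2 or E18 replicate 1 or 3, and 5 without 3d replicate 1. Without centring 1 was higher and 4 lower.

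Of 13 nuclear receptors and coactivators that govern these genes, 2 rose and 1, the mitochondrial DNA factor Tfam, fell (−0.44, adjusted p = 0.0477, and up to 0.172 without any 1 library other than E18 replicate 2). These shares, 15.4% higher and 7.69% lower, stand beside 9.42% and 8.53% over all tested coding genes. Ppargc1a, the coactivator of mitochondrial biogenesis, was at 70.8, 67.0 and 67.2 FPKM at 3d, against 52.0, 51.6 and 51.8 FPKM at E18 (0.57 ± 0.09, adjusted p = 0.00304), a call not made by edgeR (0.16) or DESeq2 (0.139). Pparg, the lipid-sensing receptor of fat and endothelium, rose by 0.95 ± 0.17 (adjusted p = 0.00473). The receptor for fatty acids that dominates in heart muscle, Ppara, was at 11.3, 9.97 and 9.61 FPKM at 3d, against 12, 14 and 10.3 FPKM at E18, and did not pass (−0.03 ± 0.17, adjusted p = 0.936). Its stages overlapped. The part of Ppara in the levels of its known targets Ucp3, Pdk4 and Plin5 was not tested. Esrra (−0.23 ± 0.16) and Esrrg (0.39 ± 0.16), orphan receptors of mitochondrial genes, did not pass either.

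Transcripts of mitochondrial DNA were higher at 3d. Of 11 tested entries 6 rose and 0 fell, and the 11 log2 fold changes ran between 1.14 and 2.19, with a median of 1.67. mt-Nd1, a subunit of complex I, was at 11200, 10700 and 12600 FPKM at 3d, against 5010, 3820 and 4870 FPKM at E18 (1.52 ± 0.17, adjusted p = 0.000555). mt-Cytb, of complex III, was at 10600, 9290 and 11500 FPKM at 3d, against 4430, 3210 and 4740 FPKM at E18 (1.53 ± 0.23, adjusted p = 0.002). mt-Co2, of complex IV, was at 472, 725 and 781 FPKM at 3d, against 173, 116 and 201 FPKM at E18 (2.19 ± 0.29, adjusted p = 0.00119). All 3 were far higher in each 3d library than in any E18 library. These genes lie end to end on a short genome with nuclear copies, and entries such as mt-Atp6, listed at 0.000189 FPKM in 3d replicate 1 and at 144 FPKM in 3d replicate 2, show that reads were not shared out evenly. Quantile normalization, which forces the highest values of all libraries to be alike, left 4 of the 6 calls, without mt-Cytb (adjusted p = 0.343). Among 76 tested nuclear-encoded subunits of the respiratory chain, a family picked by symbol after the values were seen, 2 rose and 2 fell, with a median of 0.00.

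**Figure D3:**
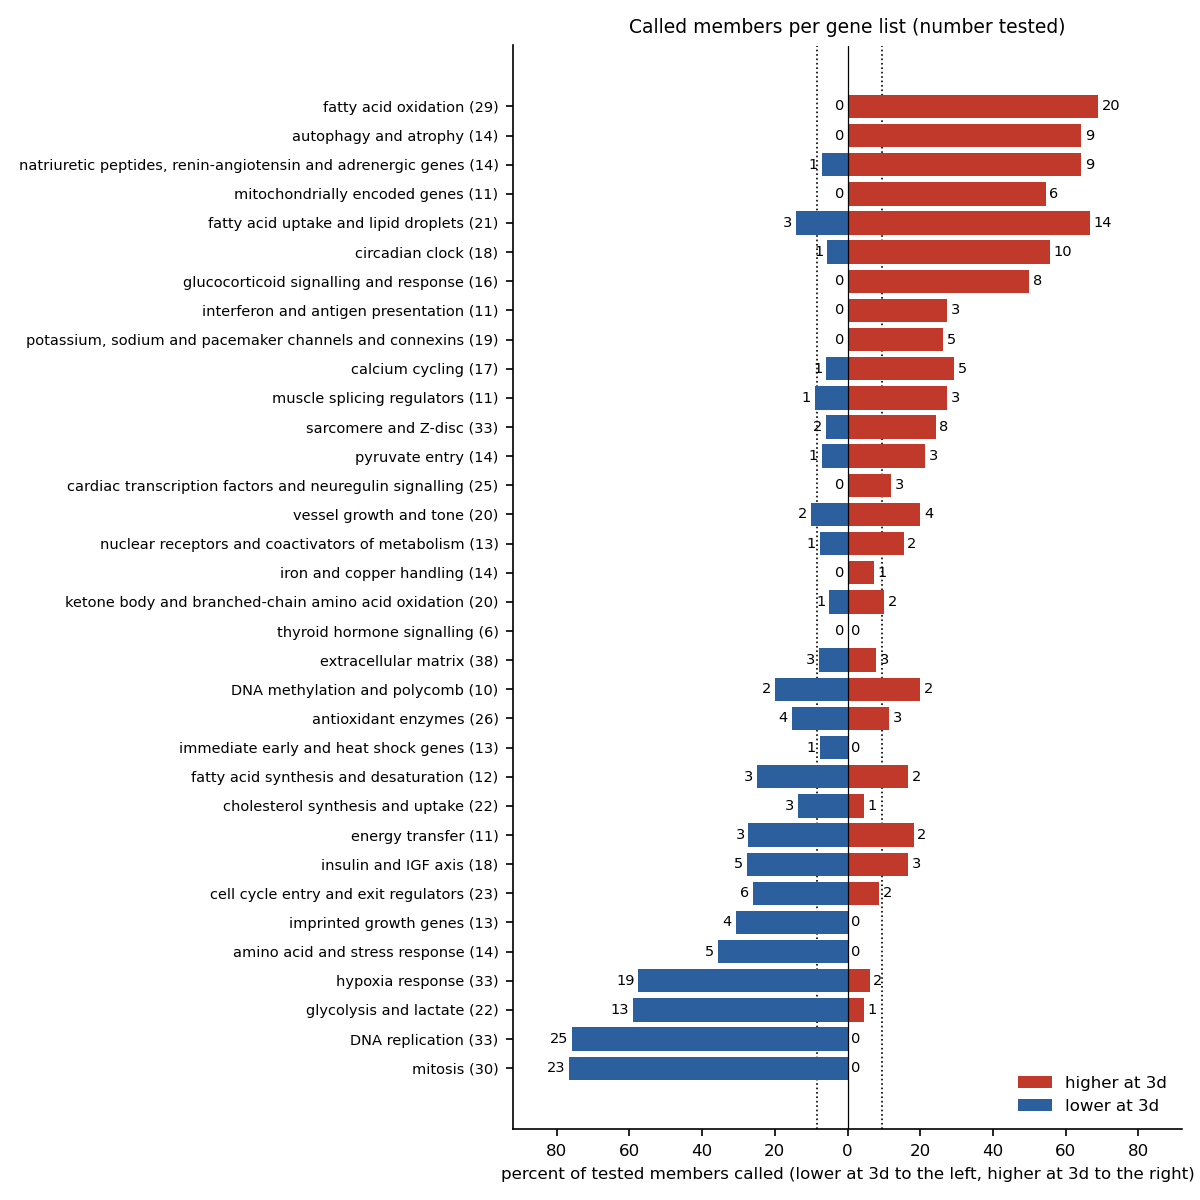
Percent of the tested members of each of 34 gene lists that were called higher (red, to the right) or lower (blue, to the left) at 3d, with the number of called members at the end of each bar and the number tested in brackets. Dotted lines mark the shares over all tested coding genes, 9.42% higher and 8.53% lower. Fatty acid oxidation has 20 of 29 members higher and mitosis 23 of 30 lower.

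Cell division genes were lower at 3d, with none higher. Of 30 tested mitosis genes 23 fell, with a median log2 fold change of −0.74, and of 33 DNA replication genes 25 fell, with a median of −0.72. Top2a, which untangles chromosomes, was at 40.9, 55.6 and 51.5 FPKM at 3d, against 97.3, 125 and 104 FPKM at E18 (−0.95 ± 0.20, adjusted p = 0.00905). Ect2, which sets up the cleavage furrow, was at 12, 19.8 and 18.7 FPKM at 3d, against 38.6, 47.9 and 37.7 FPKM at E18 (−1.09 ± 0.19, adjusted p = 0.00391). Bub1b, of the spindle checkpoint, was at 13.7, 15.3 and 14.2 FPKM at 3d, against 30.8, 31.5 and 31.3 FPKM at E18 (−0.89 ± 0.10, adjusted p = 0.000613). Each of these genes was lower in every 3d library and still well above the filter there. Cyclin A2 (Ccna2) fell by 1.12 ± 0.20 and the kinase Aurka by 0.92 ± 0.16. The division kinase Cdk1 fell by 0.93 ± 0.22 (adjusted p = 0.0166, and 0.0664 without E18 replicate 2). Mki67, the usual marker of cycling cells, was at 30.2, 38.2 and 36.5 FPKM at 3d, against 50.2, 46.8 and 50.3 FPKM at E18, and did not pass (−0.31 ± 0.15, adjusted p = 0.169), nor did the kinase Aurkb (−0.24 ± 0.12, adjusted p = 0.215).

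In the replication list the largest fall was that of Ccne2, the cyclin E2 that starts S phase, at 3.29, 3.82 and 4.7 FPKM at 3d, against 14, 17.7 and 16.1 FPKM at E18 (−1.61 ± 0.19, adjusted p = 0.000635). Rrm2, which makes deoxynucleotides, was at 31.4, 42.9 and 38.1 FPKM at 3d, against 85.2, 129 and 93.0 FPKM at E18 (−1.24 ± 0.18, adjusted p = 0.00189). The helicase subunit Mcm6 was at 16.7, 16.7 and 14.6 FPKM at 3d, against 34.4, 37.6 and 35.3 FPKM at E18 (−0.94 ± 0.09, adjusted p = 0.000268). Uhrf1, which guides maintenance methylation to new DNA, fell by 1.09 ± 0.18, the loading factor Cdc6 by 1.07 ± 0.16 and the maintenance methyltransferase Dnmt1 by 0.67 ± 0.10. The sliding clamp Pcna fell by 0.71 ± 0.17 (adjusted p = 0.0173, and up to 0.07 without E18 replicate 2 or 3). Outside the list, the checkpoint kinase Chek1 (−1.41 ± 0.16) and Cks2, a small partner of the division kinases (−1.34 ± 0.28), were among the largest falls. DESeq2 did not call Cks2 (adjusted p = 0.314).

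Of 23 regulators of cell cycle entry and exit, 6 fell and 2 rose, with 4 lower without E18 replicate 2 or 3, and 8 lower and 1 higher without centring. Mycn, a growth-promoting factor of the embryonic heart, was at 2.48, 2.71 and 2.44 FPKM at 3d, against 7.09, 7.29 and 7.51 FPKM at E18 (−1.05 ± 0.16, adjusted p = 0.00219). Cyclin D2 (Ccnd2), which drives entry into S phase, was lower in each 3d library than in any E18 library (−0.54 ± 0.09, adjusted p = 0.00318). Of the pocket proteins that restrain S phase, Rbl1 fell by 0.75 ± 0.13 and Rbl2 rose by 0.49 ± 0.10, so that the 2 relatives moved in opposite directions. The inhibitor Cdkn1c was at 23.9, 27.9 and 32.9 FPKM at 3d, against 44.6, 30.7 and 40.2 FPKM at E18 (−0.25 ± 0.19, adjusted p = 0.384). Meis1, a homeobox factor tied to cell cycle arrest in mouse heart muscle, did not pass and overlapped between stages (0.24 ± 0.09, adjusted p = 0.0795).

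Many mitotic promoters hold the cell cycle homology element, of which TTTGAA is a core, beside CCAAT boxes. Both were searched on both strands in the 250 bases before the start. Of 20 promoters of mitosis members called lower, 8 held TTTGAA, against 18.3% of all genes, and of 5 members not called 2 held it. The CCAAT box was present in 15 of the 20, in 5 of the 5 not called and in 37.5% of all genes. Since mitotic promoters are known for these motifs, the shares among members are no independent result. The 2 called members of largest change with TTTGAA, chosen by the same rule, are printed with it in capitals, as TTCAAA where it lies on the other strand.
Ect2 (GRCm38.p6, chr3:27153879-27154128, minus strand): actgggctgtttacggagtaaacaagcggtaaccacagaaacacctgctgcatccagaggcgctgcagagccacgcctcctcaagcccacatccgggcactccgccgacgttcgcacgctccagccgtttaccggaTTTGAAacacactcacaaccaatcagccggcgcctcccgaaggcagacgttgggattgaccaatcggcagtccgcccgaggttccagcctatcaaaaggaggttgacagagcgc
Top2a (GRCm38.p6, chr11:99024190-99024439, minus strand): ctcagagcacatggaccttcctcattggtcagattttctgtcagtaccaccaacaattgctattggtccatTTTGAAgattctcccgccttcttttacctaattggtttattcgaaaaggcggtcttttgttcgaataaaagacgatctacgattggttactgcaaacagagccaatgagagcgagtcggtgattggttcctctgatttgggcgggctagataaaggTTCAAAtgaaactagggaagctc
In Top2a the matches start 179 and 23 bases before the start site, and in Ect2 the match starts 114 bases before the one shown, 1 of 2 that RefSeq lists. The absence of these letters from a window says nothing of the factors that bind the gene.

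Genes that glucocorticoids induce were higher at 3d. Of 16 tested members 8 rose and 0 fell, with a median log2 fold change of 0.79. Klf9, a repressor that follows the glucocorticoid receptor in many tissues (chromosome 19, 23141226 to 23168134, GRCm38), was at 20.6, 25 and 24.9 FPKM at 3d, against 5.11, 4.91 and 5.11 FPKM at E18 (2.19 ± 0.11, adjusted p = 1.1e-05). The E18 libraries lay within 0.2 FPKM of each other, and every 3d library was far above them. Zbtb16, a zinc-finger factor, was at 26.3, 33.9 and 27.4 FPKM at 3d, against 9.84, 8.29 and 8.36 FPKM at E18 (1.79 ± 0.15, adjusted p = 8.91e-05). Sult1a1, a sulfotransferase, was at 26.3, 37.8 and 39.8 FPKM at 3d, against 11.8, 8.73 and 10.3 FPKM at E18 (1.82 ± 0.17, adjusted p = 0.000242). Sgk1, a kinase that regulates ion channels, was at 78.4, 84.8 and 76.8 FPKM at 3d, against 41.7, 55.3 and 32.6 FPKM at E18 (1.08 ± 0.20, adjusted p = 0.00504). The arrestin-domain protein Arrdc2 rose by 1.54 ± 0.15 and the kinase Map3k6 by 0.90 ± 0.20.

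Other well-known targets did not pass. Fkbp5, a chaperone partner of the receptor, was at 12.9, 34.2 and 37.0 FPKM at 3d, against 18.6, 12.7 and 15.5 FPKM at E18, with 3d replicate 1 among the E18 values (0.87 ± 0.38, adjusted p = 0.144). Tsc22d3, also called GILZ, lay at 0.28 ± 0.17 on the log2 scale (adjusted p = 0.282). The receptor itself, Nr3c1, was at 25.7, 25.1 and 26.8 FPKM at 3d, against 27.1, 28.1 and 26.4 FPKM at E18 (0.11 ± 0.10, adjusted p = 0.496), and the mineralocorticoid receptor Nr3c2 did not pass either (0.10 ± 0.14, adjusted p = 0.657). Of 6 tested members for thyroid hormone signalling none passed, and without centring 2 were lower.

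The palindrome of the glucocorticoid response element, searched as GNACA and TGTNC with any 3 bases between, was present before 2 of the 7 members called higher with a listed promoter, before 1 of 10 not called or not tested, and before 0.44% of all genes. Many members are known targets of the receptor, so the first share is no independent result. Known elements of these genes often lie farther away than the window searched. The called member with a window clear of its gene and of annotated UTRs is printed with the element in capitals.
Map3k6 (GRCm38.p6, chr4:133240568-133240817, plus strand): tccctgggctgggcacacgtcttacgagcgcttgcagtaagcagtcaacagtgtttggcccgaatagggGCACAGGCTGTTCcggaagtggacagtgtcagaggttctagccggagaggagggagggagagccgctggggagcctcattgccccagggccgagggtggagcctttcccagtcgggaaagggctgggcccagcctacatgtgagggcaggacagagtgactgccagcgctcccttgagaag
The element starts 181 bases before the start site.

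Clock genes were higher at 3d as well, 10 of 18 tested members against 1 lower (median 0.72). The labels do not state at what hour hearts were taken, and its part in this result was not tested. Per3, a period gene, was at 14, 11.5 and 8.34 FPKM at 3d, against 4.8, 4.91 and 5.45 FPKM at E18 (1.17 ± 0.22, adjusted p = 0.00561). Nr1d2, a repressor of the clock loop, was at 29.7, 33.5 and 36.1 FPKM at 3d, against 17.9, 20.1 and 18.8 FPKM at E18 (0.95 ± 0.16, adjusted p = 0.00368). The output factors Tef (0.85 ± 0.12) and Hlf (0.85 ± 0.13) rose, while Dbp of the same family did not pass (1.10 ± 0.38, adjusted p = 0.0701). Per1, a period gene that glucocorticoids also induce, rose by 1.10 ± 0.25 (adjusted p = 0.0136, and 0.0575 without E18 replicate 2). The count higher fell to 6 of 18 without E18 replicate 1 or 3.

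Fetal growth genes were lower in part. Of 18 members of the insulin and IGF list 5 fell and 3 rose, and of 13 imprinted growth genes 4 fell and 0 rose. Hmga2, a chromatin protein of growing embryonic tissue, was at 1.06, 1.1 and 1.07 FPKM at 3d, against 4.67, 3.64 and 4.83 FPKM at E18 (−1.19 ± 0.14, adjusted p = 0.000572). Igf2bp1, an RNA-binding protein of embryonic tissue, was at 5.23, 5.57 and 5.48 FPKM at 3d, against 11.9, 10.6 and 10.3 FPKM at E18 (−0.71 ± 0.12, adjusted p = 0.0032). Grb10, which restrains insulin and IGF receptors, was at 198, 208 and 205 FPKM at 3d, against 396, 356 and 394 FPKM at E18 (−0.73 ± 0.09, adjusted p = 0.000953). All 3 were lower in every 3d library. Peg10 fell by 0.91 ± 0.13 and the amino acid transporter Slc38a4 by 0.46 ± 0.09. The growth factor Igf2 was at 634, 415 and 370 FPKM at 3d, against 780, 638 and 750 FPKM at E18, and did not pass (−0.47 ± 0.17, adjusted p = 0.0756). Igf1, which takes over after birth, had 18.2, 17.8 and 20.3 FPKM at 3d, against 18.1, 17.4 and 16.9 FPKM at E18 (0.27 ± 0.11, adjusted p = 0.10). The insulin receptor Insr rose by 0.45 ± 0.09 and the binding protein Igfbp7 by 1.14 ± 0.18. Without E18 replicate 1 or 3 the insulin and IGF list had 2 members lower and 2 higher. Without 3d replicate 1 the imprinted list had 6 members lower.

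Amino acid synthesis and autophagy genes differed in direction. Of 14 members of the amino acid and stress response list 5 fell and 0 rose, namely the serine pathway enzymes Psat1 (−0.86 ± 0.14), Phgdh (−0.70 ± 0.12) and Shmt2 (−0.67 ± 0.13), the folate enzyme Mthfd2 (−0.80 ± 0.14) and the proline enzyme Aldh18a1, with adjusted p up to 0.0802 without E18 replicate 1 or 2 or 3d replicate 3. Of 14 autophagy and atrophy genes 9 rose and 0 fell. Txnip, which limits glucose uptake and binds thioredoxin, averaged 396 ± 57 FPKM at 3d and 168 ± 11.8 FPKM at E18 (SD, n = 3 each) without overlap (log2 fold change 1.4 ± 0.18, adjusted p = 0.00119). Sesn1, a nutrient sensor, was at 27.5, 53.0 and 51.9 FPKM at 3d, against 20.1, 23.0 and 19.4 FPKM at E18 (1.17 ± 0.22, adjusted p = 0.00625). The mitophagy kinase Pink1 (0.68 ± 0.10), the autophagosome protein Map1lc3b (0.59 ± 0.11) and the muscle ubiquitin ligase Trim63 (0.51 ± 0.10) rose, each less than 2-fold. Of these 14, 5 to 8 were called higher with 1 library left out, 5 without E18 replicate 3 and 6 without E18 replicate 1 or 3d replicate 2.

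Of 26 antioxidant enzymes 3 rose and 4 fell, which is near the background, and the count lower was 1 without E18 replicate 2, 2 without E18 replicate 1 or 3 and 10 without centring, with 2 higher. Catalase (Cat) was higher in each 3d library than in any E18 library (0.57 ± 0.09, adjusted p = 0.00205), and the glutathione transferase Gstm1 rose by 0.79 ± 0.10. The glutathione peroxidase Gpx1 fell by 0.51 ± 0.10, and the mitochondrial superoxide dismutase Sod2 did not pass (−0.01 ± 0.10). Among 14 iron and copper genes 1 changed, or 1 higher and 1 lower without centring. Ceruloplasmin (Cp), a copper oxidase that loads iron for transport, was at 18.6, 23.2 and 23.0 FPKM at 3d, against 6.34, 5.93 and 5.68 FPKM at E18 (1.87 ± 0.15, adjusted p = 7.61e-05).

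The contractile apparatus was altered in a minority of its genes. Of 33 tested sarcomere and Z-disc members 8 rose and 2 fell (median 0.08). Myh6, the fast adult myosin heavy chain, was at 3950, 2640 and 2660 FPKM at 3d, against 926, 1420 and 1060 FPKM at E18 (1.62 ± 0.20, adjusted p = 0.000746). Myh7, the slow fetal chain next to it in the genome, was at 783, 1330 and 1160 FPKM at 3d, against 2020, 1800 and 1920 FPKM at E18 (−0.67 ± 0.18, adjusted p = 0.0299, and up to 0.0927 without E18 replicate 1, 2 or 3). The log2 ratio of Myh6 to Myh7 was 2.33, 0.99 and 1.19 at 3d and −1.13, −0.35 and −0.87 at E18, so that Myh6 was the higher in each 3d library and Myh7 in each E18 library. 3d replicate 1, which was also high in atrial genes, had the highest ratio. Myom2, of the M-band of fast fibres, was at 185, 221 and 235 FPKM at 3d, against 108, 109 and 101 FPKM at E18 (1.18 ± 0.12, adjusted p = 0.000304). The titin cap Tcap (1.07 ± 0.16), the thin filament protein Lmod2 (1.06 ± 0.11) and the repeat protein Xirp2 (0.91 ± 0.14) rose too. Troponin I did not: Tnni1, the fetal form, had a log2 fold change of −0.23 ± 0.33, and Tnni3, the adult cardiac form, one of −0.12 ± 0.19. Titin itself, Ttn, was listed at 0 in all libraries and gives no value. Without centring 5 members of the list were higher and 7 lower, without E18 replicate 2 or 3 the counts were 5 and 0, and with E18 replicate 1 left out they were 6 and 0.

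Among 17 calcium cycling genes 5 rose and 1 fell, against 3 and 3 without centring and 3 and 2 under quantile normalization. Ryr2, the release channel of the sarcoplasmic reticulum, was at 207, 212 and 220 FPKM at 3d, against 138, 148 and 140 FPKM at E18 (0.76 ± 0.09, adjusted p = 0.000782). Cacna1c, the L-type channel that triggers it, was at 86.1, 64.4 and 59.9 FPKM at 3d, against 46.3, 43.9 and 46.4 FPKM at E18 (0.77 ± 0.12, adjusted p = 0.00205). Calreticulin (Calr), a calcium-binding chaperone, was at 109, 101 and 120 FPKM at 3d, against 224, 230 and 216 FPKM at E18 (−0.84 ± 0.12, adjusted p = 0.00159). The pump Atp2a2 (0.49 ± 0.13, adjusted p = 0.0257) and its inhibitor Pln (0.58 ± 0.16, adjusted p = 0.0281) were called higher, but adjusted p reached 0.114 for the pump without any 1 library other than E18 replicate 2 and 3d replicate 1. For Pln it reached 0.101, with the call lost in every such fit but that without 3d replicate 1. Both calls were also lost under quantile normalization, and that of Atp2a2 without centring (0.0589). Without E18 replicate 1 or 3 the list had 2 members higher, and with 3d replicate 2 or 3 or E18 replicate 2 left out it had 3.

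Of 19 channel and connexin genes 5 rose and 0 fell, or 3 and 2 without centring. The count higher was 1 without E18 replicate 3, 2 without E18 replicate 1 and 3 without E18 replicate 2. The ventricular connexin Gja1 (−0.16 ± 0.13), the inward rectifier Kcnj2 (−0.37 ± 0.14) and the pacemaker channel Hcn4 (−0.21 ± 0.21) did not pass. Of 11 energy transfer genes 2 rose and 3 fell, with 1 lower without any single E18 library or 3d replicate 3, and 1 higher and 4 lower without centring. Myoglobin (Mb), the oxygen store of muscle, was at 1470, 1320 and 1320 FPKM at 3d, against 902, 1050 and 970 FPKM at E18 (0.67 ± 0.12, adjusted p = 0.00525), a call lost under quantile normalization (0.0825).

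Hormone and nerve signals to the heart formed one of the groups with most rises, 9 of 14 tested members against 1 fall. The fall was Gipr, the receptor of the incretin GIP, at 3.84, 3.51 and 1.93 FPKM at 3d, against 19, 14.9 and 16.7 FPKM at E18 (−1.98 ± 0.17, adjusted p = 0.000156). Ace, the angiotensin-converting enzyme, was at 6.84, 6.04 and 5.32 FPKM at 3d, against 3.53, 2.08 and 2.4 FPKM at E18 (1.14 ± 0.15, adjusted p = 0.00106). The adrenergic receptor Adra1b was at 11.9, 7.22 and 7.48 FPKM at 3d, against 4.63, 3.23 and 3.88 FPKM at E18 (1.16 ± 0.16, adjusted p = 0.00147). Corin, the protease that matures atrial natriuretic peptide (0.57 ± 0.09), and the muscarinic receptor Chrm2 (0.56 ± 0.12) rose too. Nppb, the B-type peptide, was at 171, 324 and 281 FPKM at 3d, against 160, 136 and 138 FPKM at E18 (0.97 ± 0.22, adjusted p = 0.0141, and up to 0.0529 without 3d replicate 2 or E18 replicate 2 or 3). Nppa, the atrial peptide, was at 606, 361 and 358 FPKM at 3d, against 338, 191 and 279 FPKM at E18, and did not pass (0.88 ± 0.42, adjusted p = 0.174). Its stages did not overlap, but the spread behind that SE also takes in the 8w libraries, at 489, 290 and 118 FPKM. The count higher was 5 without E18 replicate 2 or 3 and 6 without 3d replicate 2. Among 25 cardiac transcription factors and neuregulin genes 3 rose and 0 fell. The share higher, 12%, was near the 9.42% over all tested coding genes, of which 8.53% were lower. The largest rise was that of Irx3, at 0.68 ± 0.17 (adjusted p = 0.0217, and up to 0.0715 without any 1 library but 3d replicate 1). No member of this list was higher without E18 replicate 2, and 1 without 3d replicate 3 or E18 replicate 1 or 3. Without centring 2 members were higher and 4 lower.

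**Figure D4:**
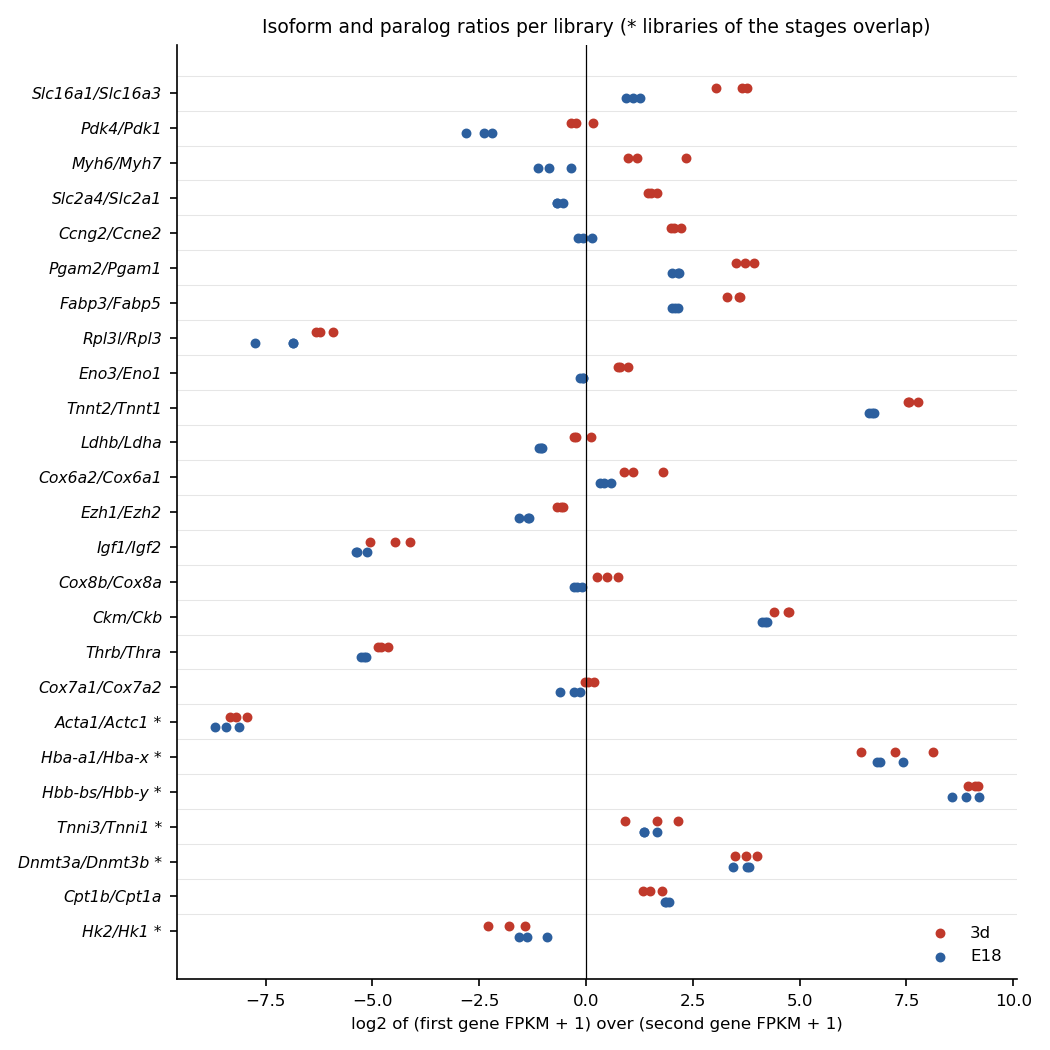
Log2 ratio of the FPKM (plus 1) of the first to the second gene of 25 pairs of isoforms or relatives in each library, with 3d libraries in red above the E18 libraries in blue. An asterisk marks the 6 pairs whose stages overlap. In 18 pairs the ratio is higher in every 3d library, as for Slc16a1 over Slc16a3 at 3.04 to 3.77 against 0.93 to 1.27, and in 1, Cpt1b over Cpt1a, it is lower.

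Ratios of an adult or postnatal isoform to its fetal or general relative depend little on library scaling for genes well above 1 FPKM. The 25 examined include Ccng2 over Ccne2, which are different cyclins. In 19 the libraries of the stages did not overlap, 18 higher and 1 lower at 3d, and with a pseudocount of 0.1 the number was 20. Of single coding genes 45.1% did not overlap, but in FPKM as deposited, which do depend on scaling, so the shares are not matched. Many pairs hold genes already called above, so the count is no independent result. With 3 libraries against 3 the exact two-sided permutation test cannot go below p = 0.1, which these 19 reached, or 0.132 after Benjamini-Hochberg adjustment over the 25, so none passed. The log2 ratio of Slc2a4 to Slc2a1 was 1.67, 1.53 and 1.44 at 3d and −0.68, −0.54 and −0.69 at E18, which put the muscle transporter above the fetal one in each 3d library. Slc16a1, a lactate carrier of wide use, over Slc16a3 differed by 2.39, and Pgam2 over Pgam1 by 1.61. Ldhb over Ldha was at 0.12, −0.28 and −0.24 at 3d and at −1.06, −1.02 and −1.09 at E18. Fabp3 over Fabp5 was at 3.60, 3.30 and 3.58 at 3d and at 2.16, 2.01 and 2.09 at E18. The overlapping pairs were Tnni3 over Tnni1, Acta1 over Actc1, Hk2 over Hk1, Dnmt3a over Dnmt3b and the adult over embryonic globins of both clusters.

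Vessel genes were mixed, with 4 of 20 members higher and 2 lower, or 3 and 3 without centring. Angpt1, which stabilises vessels, was at 14.1, 11.5 and 14.3 FPKM at 3d, against 8.18, 6.38 and 7.33 FPKM at E18 (0.96 ± 0.14, adjusted p = 0.00177). The peptide Apln fell by 0.69 ± 0.13, while its receptor Aplnr rose by 0.73 ± 0.16. Of 38 matrix genes 3 rose and 3 fell, below the background. Without 3d replicate 3 it was 5 that rose, and without any other 1 library 1 fell. Col1a1 (−0.08 ± 0.18) and Col3a1 (0.08 ± 0.14), the main fibrillar collagens, did not pass, whereas the protease inhibitor Timp3 was at 133, 177 and 174 FPKM at 3d, against 100, 96.3 and 100 FPKM at E18 (0.86 ± 0.14, adjusted p = 0.00255). Of 11 splicing regulators 3 rose and 1 fell, led by the splicing factor Rbfox1, at 4.78, 4.2 and 5.58 FPKM at 3d, against 2.49, 2.09 and 2.19 FPKM at E18 (1.02 ± 0.13, adjusted p = 0.00114). Without centring 1 splicing regulator was higher and 2 lower, and the count higher was 1 without E18 replicate 3 and 2 without 3d replicate 2 or E18 replicate 1 or 2. Of 10 DNA methylation and polycomb genes 2 rose and 2 fell, with none higher without E18 replicate 3, and 0 higher and 4 lower without centring. Of 13 immediate early and heat shock genes 1 fell, the immediate early gene Ier3 (−1.03 ± 0.17), while Fos did not pass (0.82 ± 0.41). Of 11 interferon and antigen presentation genes 3 rose, among them the class I chain H2-D1 (0.69 ± 0.13).

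Markers of some cell types of the heart moved with these changes while those of others moved little, and their part in the results above was not tested. Of 16 endothelial markers 9 rose and 0 fell (median 0.46), and their summed level was 1209 to 1303 FPKM at 3d and 713.2 to 832.9 FPKM at E18. Fabp4 alone made up 648, 604 and 741 FPKM at 3d, against 330, 231 and 313 FPKM at E18. Ly6c1, of capillaries, was at 30.9, 34.2 and 31.7 FPKM at 3d, against 11.3, 12.6 and 13.1 FPKM at E18 (1.5 ± 0.10, adjusted p = 2.37e-05). Pecam1 rose by 0.53 ± 0.11 and Cdh5, the junction protein of vessel walls, by 0.62 ± 0.11. Of 11 cardiomyocyte markers 4 rose and 0 fell (2 higher without any 1 E18 library or 3d replicate 3, 3 higher and 3 lower without centring, and 2 and 2 under quantile normalization), and their sum was 17240 to 18810 FPKM at 3d and 17420 to 18290 FPKM at E18. Fibroblast markers had 2 of 12 higher, the dipeptidase Dpep1 (1.24 ± 0.16) and the microfibril protein Mfap5 (1.08 ± 0.22). Of 7 tested epicardial markers 2 fell (none without E18 replicate 3), with a sum of 35.49 to 40.31 FPKM at 3d and 56.66 to 65.8 FPKM at E18.

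Blood cell genes went in both directions. Of 8 erythroid markers 4 fell and 0 rose, with a summed level of 1015 to 1369 FPKM at 3d and 3277 to 3571 FPKM at E18. Adult beta globin, Hbb-bs, was at 890, 778 and 741 FPKM at 3d, against 2860, 2740 and 2700 FPKM at E18 (−1.61 ± 0.23, adjusted p = 0.00159), with reads that near-identical globins may share. Embryonic beta globin, Hbb-y, was at 0.627, 0.587 and 0.293 FPKM at 3d, against 6.51, 3.69 and 4.63 FPKM at E18 (−1.79 ± 0.17, adjusted p = 0.000254). Of 8 neutrophil markers 3 reached the filter, which takes the mean over both stages, and all 3 were called higher. S100a9 was at 6.32, 14.5 and 10.6 FPKM at 3d, against 3.61, 3.12 and 3.8 FPKM at E18 (1.46 ± 0.32, adjusted p = 0.0108). The calls of S100a8 and Retnlg were lost with adjusted p up to 0.088 and 0.0629, both without E18 replicate 2 and without 3d replicate 2 or 3, and that of S100a8 also without E18 replicate 1 or 3. Of 12 smooth muscle and pericyte markers 5 rose and 1 fell, or 2 and 3 without centring. Led by the pericyte gene Rgs5 (0.94 ± 0.10), they numbered 2 higher without E18 replicate 1 or 3 and 3 without E18 replicate 2 or 3d replicate 2, and 3 were lower without 3d replicate 1. Their summed level was 624.7 to 751.5 FPKM at 3d and 679.1 to 751.2 FPKM at E18.

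None of the 4 tested of 8 lung epithelium markers passed, though 1 was called higher without 3d replicate 1 or without 3d replicate 3. Their summed level, in which the heart gene Hopx is included, was 127.4, 203.8 and 181.2 FPKM at 3d and 179.8, 198 and 167.3 FPKM at E18. Scgb1a1, the club cell secretory protein, was at 0, 33.8 and 21.3 FPKM at 3d, against 0 FPKM in each E18 library (adjusted p = 0.159). Sftpc, a surfactant protein, was at 0.357, 20.2 and 10.1 FPKM at 3d, against 0.239, 0 and 0 FPKM at E18 (adjusted p = 0.153). The spread in both tests also takes in the 8w libraries, of which replicate 2 held 60.9 FPKM of Scgb1a1 and 36.3 FPKM of Sftpc. Both genes were at or near 0 in 3d replicate 1 and high in 3d replicates 2 and 3, the libraries in which the neutrophil gene S100a9 was highest. The part of such tissue in the results above was not tested. No macrophage marker of 7 passed, and no lymphocyte marker reached the filter.

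Several of the largest changes belonged to no list. Lgals4, a galectin best known from the gut, was at 64.3, 25.5 and 27.1 FPKM at 3d, against 4.53, 8.13 and 5.75 FPKM at E18 (2.56 ± 0.29, adjusted p = 0.000555). Mapk10, a stress-activated kinase of brain and heart, was at 14.2, 16.1 and 12.1 FPKM at 3d, against 2.25, 3.18 and 3.92 FPKM at E18 (2.07 ± 0.20, adjusted p = 0.000242). Art3, a member of the ADP-ribosyltransferase family, was at 129, 171 and 157 FPKM at 3d, against 46.6, 42.2 and 46.7 FPKM at E18 (1.9 ± 0.12, adjusted p = 2.37e-05). In these 3 genes the stages were far apart, and 3d replicate 1 was the highest library for Lgals4. The splicing factor Srsf7 was at 4.87, 8.37 and 6.87 FPKM at 3d, against 19.1, 28.9 and 27.0 FPKM at E18 (−1.58 ± 0.21, adjusted p = 0.00119). Rpl15, a ribosomal protein with many processed copies in the genome, was at 36.8, 64.2 and 36.9 FPKM at 3d, against 163, 117 and 133 FPKM at E18 (−1.42 ± 0.27, adjusted p = 0.00627).

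Among 3733 tested lncRNA genes 188 passed (5.04%), 97 higher (2.6%) and 91 lower (2.44%). Neat1, around which paraspeckles form in the nucleus (chromosome 19, 5824708 to 5845478, GRCm38), was at 109, 91.3 and 70.2 FPKM at 3d, against 23.4, 30.0 and 24.4 FPKM at E18 (1.76 ± 0.16, adjusted p = 0.00272). Its neighbour Malat1 was at 16000, 13600 and 15300 FPKM at 3d, against 9380, 12700 and 9540 FPKM at E18, and did not pass (0.53 ± 0.16, adjusted p = 0.102). H19, the imprinted RNA beside Igf2, was at 941, 738 and 688 FPKM at 3d, against 1540, 1280 and 1420 FPKM at E18 (−0.84 ± 0.16, adjusted p = 0.0301). Rian, a maternally expressed RNA of the Dlk1 to Meg3 cluster, was at 69.5, 69.2 and 69.7 FPKM at 3d, against 131, 161 and 144 FPKM at E18 (−1.04 ± 0.12, adjusted p = 0.00738). Its neighbour Meg3 was at 101, 72.2 and 49.1 FPKM at 3d, against 89.2, 74.9 and 84.1 FPKM at E18 (−0.20 ± 0.29, adjusted p = 0.725), so that within the cluster Rian was lower in every 3d library while Meg3 overlapped. Mir22hg, the host of a miRNA abundant in heart, rose by 0.86 ± 0.18 (adjusted p = 0.0345), and Toporsos fell by 1.25 ± 0.25 (adjusted p = 0.0301). The calls of Mir22hg (adjusted p up to 0.122), Toporsos (0.105) and H19 (0.101) were lost with 1 library left out, for Mir22hg whichever it was, for Toporsos in all such fits but that without 3d replicate 2, and for H19 in all but that without 3d replicate 1. Those of Neat1 and Rian were kept in every such fit. The count over all lncRNAs was 29, 59 and 39 without E18 replicate 1, 2 or 3, and 117, 71 and 56 without 3d replicate 1, 2 or 3.

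**Figure D5:**
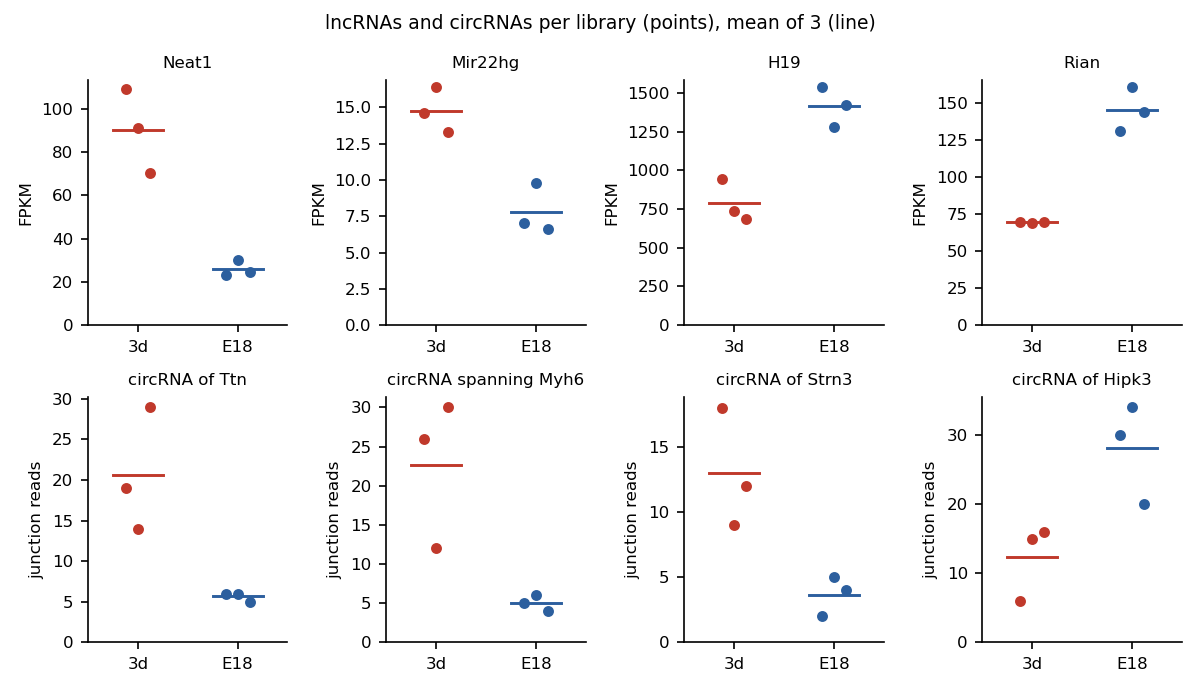
Top row, FPKM of 4 lncRNAs, and bottom row, back-splice junction reads of 4 circRNAs, in each library at 3d (left, red) and at E18 (right, blue), with the mean of 3 as a line. The stages do not overlap in any of the 8 panels, but only the lncRNAs and the first 2 circRNAs passed the test.

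CircRNAs were counted at low depth, with 2676 to 3905 junction reads per library over these 6. Of 626 tested with edgeR, 2 passed (0.319%), both higher at 3d, and 47 had an unadjusted p under 0.05. DESeq2 also called 2. The first joins the end of exon 120 of titin to the start of exon 87 (chr2:76857904-76881839, minus strand, GRCm38, exons of transcript ENSMUST00000099981.8) and spans 34 exons, or 6204 bases if every exon between is kept. It had 19, 14 and 29 reads at 3d, against 6, 6 and 5 reads at E18 (log2 fold change 1.93, adjusted p = 5.17e-05). Every 3d library held more reads than any E18 library. The back-splice is shown with the last 20 bases of exon 120 in lower case and the first 20 of exon 87 in capitals.
Ttn circRNA, exon 120 to exon 87: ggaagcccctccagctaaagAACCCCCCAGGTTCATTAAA
Since the linear Ttn entry was listed at 0, a ratio of circular to linear RNA could not be formed. The second was listed as sense overlapping on chromosome 14 (54953322 to 54983710), a span that runs from Myh6 into its neighbour Myh7. It had 26, 12 and 30 reads at 3d, against 5, 6 and 4 reads at E18 (2.26, adjusted p = 6.52e-05). The 2 myosin genes are alike in sequence, so whether these reads come from a circle is uncertain. Next in rank came a circRNA of Strn3 with 18, 9 and 12 reads at 3d, against 2, 5 and 4 reads at E18 (adjusted p = 0.171). Lower at 3d without passing was the single-exon circRNA of Hipk3, with 6, 15 and 16 reads at 3d, against 30, 34 and 20 reads at E18 (−1.10, adjusted p = 0.449).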

How the data were processed

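RNA-seq of 9 mouse heart libraries was analysed, of which 6 entered the comparison of 3d with E18. Per the submitters' processing notes, cutadapt 1.9.1, HISAT2 2.0.4 and Cuffdiff were used with GRCm38. The deposited tables hold FPKM, estimated counts (count columns equal to fragments times 1 factor per library, which were divided out, rounded and used only in alternatives), and whole junction read counts for circRNAs. The library kit, per the labels' protocols, was SMARTER mRNA-Seq; whether it keeps strand is not stated there, so overlapping and antisense genes cannot be told apart.

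Genes averaging at least 1 FPKM (coding) or 0.5 FPKM (lncRNA) over the 6 libraries were tested with limma 3.58.1 (R 4.3.3) on log2(FPKM + 1), with an intensity trend and each library's median subtracted. All 9 libraries shared 1 estimate of spread, and p-values were adjusted by Benjamini-Hochberg over all tested genes. CircRNAs with at least 10 reads summed over all 9 libraries were tested with edgeR 4.0.16 (quasi-likelihood, TMM). DESeq2 1.42.0, edgeR on recovered fragments, other normalizations, filters and pseudocounts, a replicate block and leaving out each library were alternatives. The scripts were tested on simulated data.

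The 48 gene lists hold 807 genes, of which 697 were tested. Members and lists were chosen with earlier results of these data known. Named without regard to a list are the 15 largest changes in each direction among called genes that averaged at least 10 FPKM in the higher stage; a gene that met this rule is not reported here. The circRNA table also holds 9 columns that its header calls logCPM by edgeR, 1 for each library, which were not used here. Counting intervals are not given for FPKM; the spread between libraries is the error used.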

Additional observations from a re-analysis of the deposited data

How the results depend on the processing

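Without centring, 591 coding genes were higher and 2585 lower at 3d. With 1 library left out, the total ran from 1121 to 2134, with 620 to 1184 higher and 501 to 964 lower. A minimum of 2-fold left 207 coding genes, 134 higher and 73 lower, 64 members of the gene lists and 12 cell type markers, which numbered 21 at the fewest with 1 library left out. The lncRNA total of 188 was 119 with a pseudocount of 0.1, 63 with no filter, 104 at a mean of at least 5 FPKM, 102 with 6 libraries only, 116 by edgeR on recovered fragments, 60 with the 2-fold minimum, and 29 to 117 with 1 library left out. Replicate numbers did not pair the samples (correlations of same-numbered libraries 0.0987, 0.0649 and −0.0751). With the replicate block 954 coding genes were higher, 813 lower, and 64 lncRNAs, 243 list members and 35 cell type markers passed. No called gene or non-overlapping ratio named in the text changed sign under any alternative run; some uncalled ones did, such as Meg3 (0.05 without 3d replicate 3), and without centring the balance of several lists turned, as given with them. The causes of these shifts were not tested. Junction reads limit the circRNA test, and 3 libraries a stage limit all of them.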

Other observations

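Some of the larger changes belonged to no list and were chosen after their values were seen; each gene named here passed the test. Car4, a carbonic anhydrase of capillary walls, was at 10.4, 7.65 and 11.3 FPKM at 3d, against 0.604, 1.11 and 0.416 FPKM at E18 (log2 fold change 2.84). Timp4, a protease inhibitor rich in heart, had a log2 fold change of 2.62, the mitochondrial carrier Slc25a34 one of 2.04, the heart muscle protein Lrrc10 one of 1.51 and glutamine synthetase (Glul) one of 1.46. Lower at 3d were the potassium channel subunit Kcne3 (−1.80), the growth factor Bmp7 (−1.08), the tubulin Tuba1b (−1.07) and the lamins Lmnb1 (−0.92) and Lmnb2 (−1.02).

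Among families picked by symbol, 25 of 83 tested ribosomal protein genes were lower and 0 higher (median −0.29), and 15 of 63 replication-dependent histone genes were lower and 0 higher (median −0.53). Both families hold near-identical copies that may share reads.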
